A study of Homo sapiens with 6 samples.

Results

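The genes described here carry interferon response and innate sensing names: receptors for interferon, the STAT and IRF transcription factors, sensors of viral and bacterial molecules, and antiviral effectors. They were taken by a rule on names, which was chosen with earlier results of these data known. Every distinct name in the peak lists or promoter tables that begins with IFI, IFNAR, IFNGR, IRF and a digit, ISG, APOBEC3, TLR and a digit, OAS, STAT and a digit, NLRP and a digit or NOD and a digit was taken, together with DDX58, and names containing -AS were left out. This gave 58 of the 16500 names in the files. A gene with no peak and no row in a promoter table could not be found this way, so the share of these genes with a peak is not the share of the whole gene families.

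Trimethylated histone H3 lysine 4 (H3K4me3), a mark of active promoters, was profiled by ChIP-seq in BE(2)-C cells, an established human neuroblastoma line. Cells were transfected with WDR5 siRNA-1 or with control siRNA for 24 hours, and each siRNA gave 1 H3K4me3 library. WDR5 is a shared subunit of the H3K4 methyltransferase complexes, and the files hold no measure of its knockdown. The deposited values are names: the genes that had a peak up to 1 kb from their transcription start site in each library, and start sites on hg19 in a table of N-Myc-binding and a table of N-Myc-non-binding promoters. No peak height, read number or depth comes with them, so a name that is not listed shows a missing call and not that the mark was absent. With 1 library per siRNA there is no replicate error and no test. The libraries are of bulk chromatin, so fewer cells with the mark and less mark per cell cannot be told apart.

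Cells detect viral and bacterial molecules through membrane sensors (toll-like receptors) and cytosolic sensors (RIG-I, MDA5 and the NOD-like proteins). Their adaptors activate IRF factors, which switch on interferon genes. Secreted interferon binds its receptor, and JAK kinases then phosphorylate STAT factors, which join IRF9 in the ISGF3 complex. ISGF3 binds the interferon-stimulated response element (ISRE) in promoters of antiviral effectors, while STAT dimers bind a palindromic STAT site after interferon gamma.

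Of the 58 genes, 26 were listed with WDR5 siRNA, against 35 with control siRNA. The receptors and most STAT factors were listed in both libraries. IRF5, IRF7, IRF9, ISG15, ISG20 and the RNA sensor IFIH1 were among those listed only with control siRNA. In all, 23 genes were listed in both libraries, 12 only with control siRNA, 3 only with WDR5 siRNA and 20 in neither. The 20 were 34.5% of the 58 genes, against 16.9% of all 16500 names. Of all names, 11870 were listed with WDR5 siRNA and 13618 with control siRNA. The 12 control-only genes were 34.3% of the 35 with a control peak (exact Clopper-Pearson 95% interval over genes 19.1 to 52.2%). Over all 13618 names with a control peak, 13.5% (1845) were control-only, which lies below that interval. The interval treats genes as independent draws and covers no library error. It also does not cover the choice of these genes with earlier results of these data known.

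**Figure D1:**
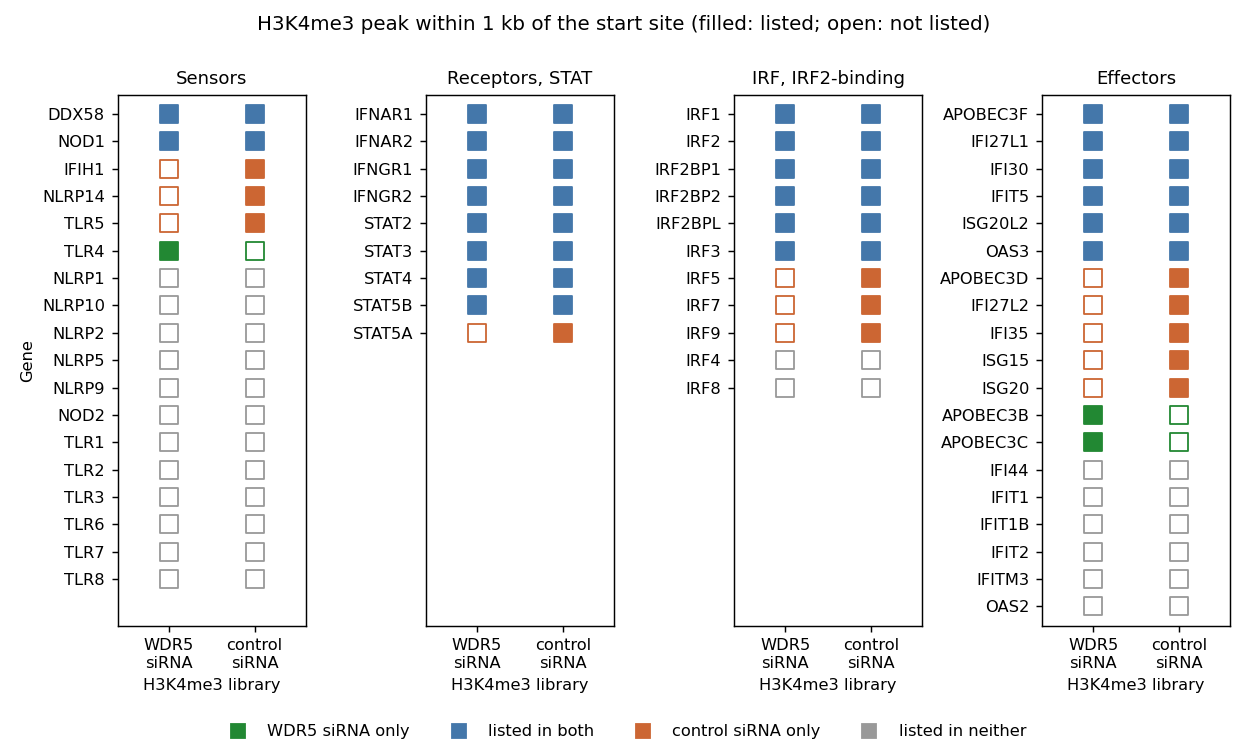
H3K4me3 peak calls of the genes, grouped by role, with a column for the WDR5 siRNA library and a column for the control siRNA library; a filled square is a listed gene and an open square a gene that was not listed. All 4 receptors are filled in both columns, 12 genes are filled only under control siRNA and 3 only under WDR5 siRNA.

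The cytosolic RNA sensors differed in their calls. DDX58, which encodes RIG-I, was listed in both libraries. IFIH1, which encodes MDA5, the sensor of long double-stranded RNA, was listed only with control siRNA. Its start site lies at chromosome 2, position 163175218, in the N-Myc-non-binding table. The control list runs nearly in genome order, since 3554 of the 3557 neighbouring pairs on 1 chromosome that have start sites in the promoter tables follow it. In it IFIH1 stood between TBR1 and GCA, and both of these names were also control-only.

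Of the 8 toll-like receptors, all in the non-binding table, 6 were listed in neither library, against 41.4% of all promoters of that table. These were TLR1, TLR2 and TLR6, which recognise bacterial lipopeptides, TLR3, which binds double-stranded RNA, and TLR7 and TLR8, which bind single-stranded RNA in endosomes. The start sites of TLR1 and TLR6 lie 52.0 kb apart on chromosome 4, and those of TLR7 and TLR8 lie 39.5 kb apart on chromosome X. TLR5, the flagellin receptor (chromosome 1, position 223316624), was listed only with control siRNA. TLR4, the lipopolysaccharide receptor (chromosome 9, position 120466453), was listed only with WDR5 siRNA. No toll-like receptor was listed in both. The NOD-like sensors had NOD1, a cytosolic sensor of peptidoglycan fragments, in both libraries and its relative NOD2 in neither. Of the 6 NLRP names, NLRP14, known from germ cells (chromosome 11, position 7041700), was control-only, and NLRP1, NLRP2, NLRP5, NLRP9 and NLRP10 were in neither list. All 6 stood in the non-binding table, where 41.4% of all promoters were in neither list. The group of 18 sensors, made by name, thus had 3 genes listed with WDR5 siRNA, against 5 with control siRNA. Of those 5, 3 were control-only: IFIH1, TLR5 and NLRP14, the last counted by its name. With 5 genes the interval runs from 14.7 to 94.7%, beside 13.5% of all names with a control peak and 17.9% of those in the non-binding table, which it includes.

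All 4 interferon receptor genes were listed in both libraries, as were 11773 of all 13618 names with a control peak. With 4 genes the control-only share of 0% has an interval of 0 to 60.2%, which includes the 13.5% of all names. IFNAR1 (position 34697214) and IFNAR2 (position 34602231), the subunits of the type I receptor, and IFNGR2 (position 34775202), a subunit of the interferon gamma receptor, lie on chromosome 21 with start sites spread over 173 kb. IFNGR1, the ligand-binding subunit (chromosome 6, position 137540567), stood between IL20RA and TNFAIP3 in the control list. IL20RA was control-only and TNFAIP3 was listed in both. Of all names listed in both, 22.8% had a control-only neighbour. IFNAR1 was an N-Myc-binding promoter. The other three receptor promoters were in the non-binding table.

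STAT factors were mostly listed in both libraries. STAT2, a subunit of ISGF3, STAT3, which acts below the interleukin 6 family, STAT4, which acts below interleukin 12, and STAT5B were listed in both. STAT5A was control-only, which is 1 of 6 STAT names (16.7%, interval 0.421 to 64.1%), near the 13.5% of all names. STAT5A (position 40439565) and STAT5B (position 40428424) are closely related factors that act below growth hormone and prolactin. Their start sites lie 11.1 kb apart on chromosome 17, and the start site of STAT3 lies 100948 bp beyond that of STAT5A. In the control list STAT5B, STAT5A and STAT3 followed each other, and in the WDR5 siRNA list STAT3 came directly after STAT5B.

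The RefSeq promoter sequences of the STAT5 pair (GRCh38.p14) differed in CpG content, the feature by which CpG-island promoters are known and on which H3K4me3 commonly lies. They are shown because these neighbouring paralogs had different calls. The 120 bases before the start are given 5′ to 3′ on the gene's strand, with each CpG in capitals, for STAT5A (chr17:42287427-42287546, plus strand) and STAT5B (chr17:42276392-42276511, minus strand).
STAT5A: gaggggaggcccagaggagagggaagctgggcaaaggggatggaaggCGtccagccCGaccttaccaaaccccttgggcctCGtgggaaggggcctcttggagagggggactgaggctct
STAT5B: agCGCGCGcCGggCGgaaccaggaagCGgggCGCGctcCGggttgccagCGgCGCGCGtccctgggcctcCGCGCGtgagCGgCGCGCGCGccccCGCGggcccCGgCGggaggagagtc
The STAT5A stretch held 3 CpG and the STAT5B stretch 25. RefSeq gives 3 start sites for STAT5A, and the one shown has a spacing from STAT5B within 15 bp of the authors' spacing on hg19. Over the whole 300-base window (250 bases before the start and 50 after it) the ratio of observed to expected CpG was 0.177 for that start and 0.135 for the first one. At the third start, 966 bp farther from STAT5B than the authors' spacing, it was 0.881. For STAT5B it was 1.10.

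Of the 8 IRF factors, 3 were listed in both libraries, 3 only with control siRNA and 2 in neither. IRF1, its antagonist IRF2 (chromosome 4, position 185395726) and IRF3, which is phosphorylated below the RNA sensors to induce interferon beta, had a call in each. IRF7, the inducible regulator of type I interferon genes (chromosome 11, position 615999), IRF5, which acts below toll-like receptors (chromosome 7, position 128577994), and IRF9, the DNA-binding subunit of ISGF3, were control-only. IRF4 and IRF8, factors of lymphoid and myeloid cells, were in neither list. The IRF factors thus had 3 names listed with WDR5 siRNA, against 6 with control siRNA. The 3 control-only genes of these 6 have an interval of 11.8 to 88.2%, which includes the 13.5% of all names. Of the ISGF3 subunits, STAT2 was listed in both libraries and IRF9 was missing with WDR5 siRNA.

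The control-only IRF genes each had a control-only neighbour in the control list. These were DRD4 beside IRF7, KCP beside IRF5 and REC8 beside IRF9. On their other side stood PHRF1, TNPO3 and RNF31, each listed in both libraries. Of all 1845 control-only names, 37.7% had a control-only neighbour. The names IRF2BP1, IRF2BP2 and IRF2BPL, which encode proteins that bind IRF2 or resemble those that do and are not IRF factors, were all listed in both. So were 11773 of all 13618 names with a control peak. With 3 genes the interval of the control-only share is 0 to 70.8%, which includes the 13.5% of all names.

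The group of effectors, made by name, gave 8 of 19 names listed with WDR5 siRNA, against 11 with control siRNA. These counts include ISG20L2, which has the name but not the role. Of the 11, 5 were control-only (45.5%, interval 16.7 to 76.6%), against 13.5% of all names. Most of these 11 genes were in neither promoter table, where 15.5% of all names with a control peak were control-only. The interval lies above both shares. It includes the 17.9% of all non-binding promoters with a control peak that were control-only, but of the 11 only ISG15 and OAS3 belong to that class. ISG15 encodes a ubiquitin-like protein that is attached to other proteins, and ISG20 an antiviral exonuclease. Both were control-only. Their relative by name ISG20L2, an exonuclease of ribosomal RNA maturation and not an interferon effector, was listed in both and stood in the N-Myc-binding table. ISG15 (chromosome 1, position 948847) stood between PLEKHN1 and AGRN in the control list, both of them control-only. ISG20 stood between AEN and HAPLN3, both listed in both libraries.

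Of the other IFI names, IFI30, which encodes a lysosomal thiol reductase, IFI27L1 and IFIT5 were listed in both. IFI35 and IFI27L2 were control-only. IFI27L1 and IFI27L2 followed each other in the control list. IFI44, IFIT1, IFIT1B, IFIT2 and IFITM3 were in neither. IFIT proteins bind viral RNA, and IFITM3 blocks the entry of enveloped viruses. Of the IFIT cluster on chromosome 10, the start sites of IFIT2, IFIT1B and IFIT1 spread over 90.6 kb and had no call, while IFIT5, the other IFIT name in the files, had one in each library. The oligoadenylate synthetases, which respond to double-stranded RNA, had OAS3 in both libraries and OAS2 in neither, with start sites 40025 bp apart on chromosome 12.

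ISRE matches were looked for in the promoter windows as GAAA followed after any 2 bases by GAAA, on either strand, overlapping matches included. The stretches below are shown because these genes have the same element and different calls, with each match in capitals. ISG15 (chr1:1013362-1013496, plus strand) and IFIH1 (chr2:162318685-162318849, minus strand) were control-only. OAS3 (chr12:112938324-112938473, plus strand) and IFIT5 (chr10:89414508-89414567, plus strand) were listed in both, and IFIT1 (chr10:89392493-89392622, plus strand) in neither. All are RefSeq sequence of GRCh38.p14, 5′ to 3′ on the gene's strand, ending at the base before the start.
ISG15: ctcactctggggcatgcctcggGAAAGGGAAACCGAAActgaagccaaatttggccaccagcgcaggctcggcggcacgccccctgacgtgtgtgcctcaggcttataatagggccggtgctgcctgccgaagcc
IFIH1: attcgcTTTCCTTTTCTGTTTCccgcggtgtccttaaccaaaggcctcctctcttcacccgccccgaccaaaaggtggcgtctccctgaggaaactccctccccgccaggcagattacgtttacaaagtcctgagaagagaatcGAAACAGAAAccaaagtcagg
OAS3: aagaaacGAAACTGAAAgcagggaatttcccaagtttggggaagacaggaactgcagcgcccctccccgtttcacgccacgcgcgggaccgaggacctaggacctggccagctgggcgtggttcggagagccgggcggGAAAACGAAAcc
IFIT5: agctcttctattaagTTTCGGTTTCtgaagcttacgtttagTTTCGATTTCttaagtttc
IFIT1: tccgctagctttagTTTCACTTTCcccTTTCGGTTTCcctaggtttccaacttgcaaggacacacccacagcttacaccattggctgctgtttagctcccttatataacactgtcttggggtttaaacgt
The ISG15 matches overlap and begin 113 and 107 bases before the start. In IFIT1 the matches begin 116 and 103 bases before the start. OAS3 holds one 12 bases before the start, and IFIT5 has its matches within 45 bases of it, of which the one nearest the start crosses it and is not drawn. The element thus stood at promoters of every class of call that these genes had, other than the WDR5-siRNA-only class.

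A promoter window was found for 43 of the 58 genes, and this ISRE pattern was present in 9 of them (20.9%). The same element was present for 3.86% of the 12597 names of the files with a window and 4.38% of all 27305 RefSeq genes with one. By call, 2 of 18 genes listed in both (OAS3 and IFIT5), 3 of 10 control-only genes (ISG15, IFIH1 and ISG20) and 4 of 14 genes in neither list (IFIT1, IFI44, IFITM3 and TLR3) held it. Over all names the shares were 3.22% for those listed in both, 3.66% for control-only names and 6.69% for those in neither list. With at most 18 genes in a class, these counts are a description.

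The STAT site was searched as TTCNNNGAA on either strand and was present in 6 of the 43 genes (13.95%), against 8.75% of all names with a window. The E-box CACGTG, the preferred site of MYC-family factors, was also present in 6 (13.95%), against 11.7% of all names. IRF9 held both within 80 bases of its start, and its promoter (chr14:24161185-24161264, plus strand) is shown with the E-box and then the STAT site in capitals because IRF9 is the ISGF3 subunit with no call after WDR5 siRNA.
IRF9: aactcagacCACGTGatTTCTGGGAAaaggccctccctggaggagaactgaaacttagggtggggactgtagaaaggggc
IRF9 was in neither promoter table, so no N-Myc class is given for it. The E-box carriers were IRF9, ISG20, IFI30, NOD2, NLRP5 and TLR2, of which NOD2, NLRP5 and TLR2 were in the non-binding table. ISG20 and IFI30, like IRF9, were in neither table. The N-Myc-binding promoters IFNAR1, IRF2BP1, ISG20L2 and STAT3 held no CACGTG in these windows.

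The ratio of observed to expected CpG followed the calls. Its median was 0.872 for the 18 genes listed in both, 0.567 for the 10 control-only genes and 0.344 for the 14 in neither list. All names with a window had medians of 0.846, 0.750 and 0.304 for the same calls, so the order was that of the whole set. TLR4, the WDR5-siRNA-only gene with a window, had a ratio of 0.462. Exceptions were present in every class. STAT4 (0.353) and IFI30 (0.528) had low ratios and were listed in both, while IRF4 (0.841) and TLR2 (0.835) had high ones and were in neither list. Among control-only genes the ratio ranged from 0.177 in STAT5A to 0.871 in NLRP14.

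**Figure D2:**
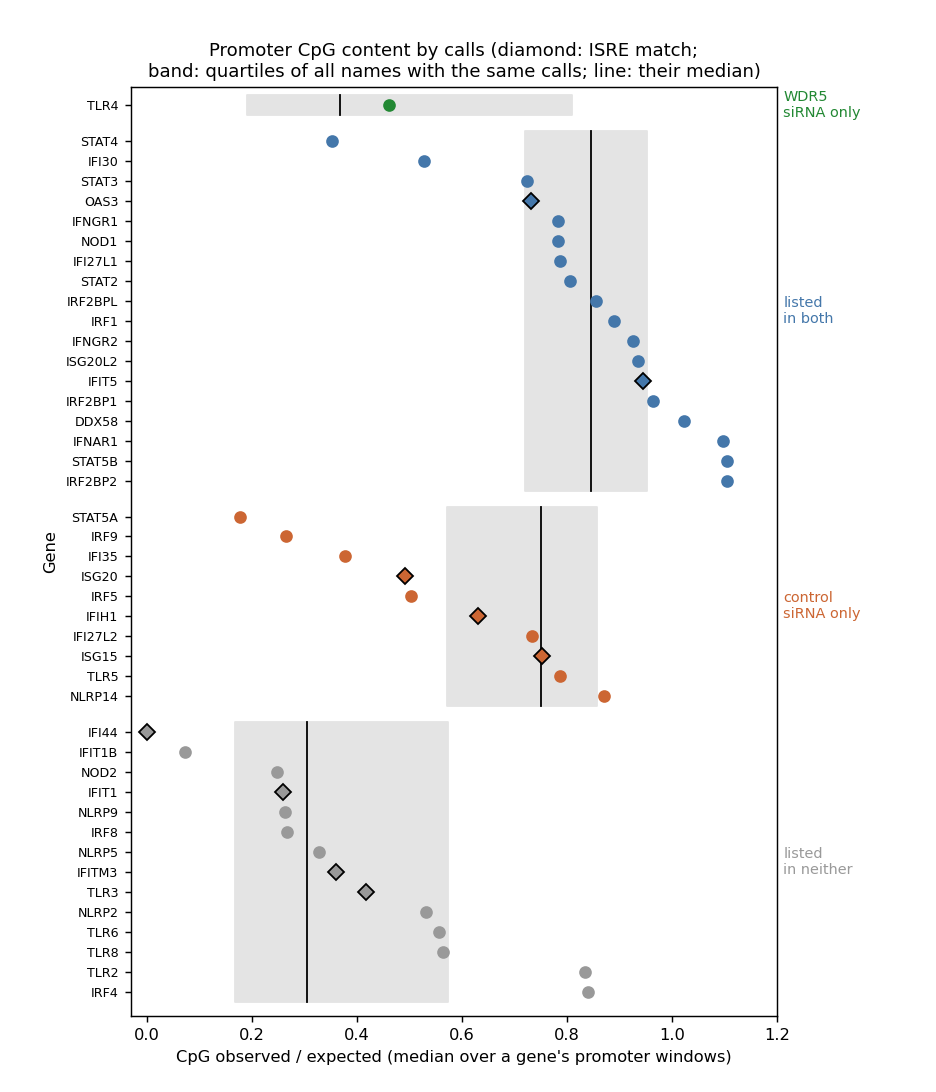
Ratio of observed to expected CpG in RefSeq promoter windows, 1 point per gene, for the 43 genes with a window, sorted within calls; diamonds hold an ISRE match, bands give the quartiles of all names with the same calls and black lines their medians. Genes listed in both libraries have a median of 0.872, control-only genes 0.567 and genes in neither list 0.344.

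The APOBEC3 deaminases, which act against retroviruses and retroelements, made up 2 of the 3 genes listed only with WDR5 siRNA. APOBEC3B and APOBEC3C were listed only with WDR5 siRNA, APOBEC3D only with control siRNA and APOBEC3F in both. In the WDR5 siRNA list APOBEC3B, APOBEC3C and APOBEC3F followed each other between CBX6 and CBX7. In the control list APOBEC3D and APOBEC3F stood in that place. APOBEC3 genes are closely similar copies in a cluster, and how reads matching several copies were treated is not stated in the sources used here, so which copy carried a peak is uncertain.

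With TLR4, 3 of the 26 genes listed with WDR5 siRNA were missing from the control list (11.5%, interval 2.45 to 30.2%), against 0.817% of all 11870 names with a peak in that library. Only 97 names in all were of this kind, and APOBEC3B and APOBEC3C are neighbours, so the genes do not count as independent draws. TLR4 stood between ASTN2 and CDK5RAP2, both listed in both libraries. The last 120 bases before its RefSeq start (chr9:117704283-117704402, plus strand) are shown with each CpG in capitals, since TLR4 was the sensor with a call only after WDR5 siRNA.
TLR4: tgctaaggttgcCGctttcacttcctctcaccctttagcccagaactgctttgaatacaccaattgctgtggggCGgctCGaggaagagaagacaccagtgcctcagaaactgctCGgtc
This stretch held 4 CpG, and the window held none of the motifs searched.

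Few of these promoters were N-Myc-binding. Of the 39 genes with a row in a promoter table, 4 were in the N-Myc-binding table (10.3%, interval 2.87 to 24.2%), against 33.9% of all 9585 promoters in the tables. All 4 were listed in both libraries. Over all N-Myc-binding promoters with a control peak, 4.18% were control-only. Of the 35 genes in the non-binding table, 20 were in neither list (57.1%), against 41.4% of all promoters of that table.

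Within the non-binding table, the control-only genes were 7 of 14 that had a control peak (interval 23.04 to 77.0%), against 17.9% of all its promoters with a control peak. These were IFIH1, IRF5, IRF7, ISG15, NLRP14, STAT5A and TLR5. The genes of neither table had 5 of 17 control-only (29.4%, interval 10.3 to 56.0%), against 15.5% of all such names, and this interval includes the overall share. They were APOBEC3D, IFI27L2, IFI35, IRF9 and ISG20. Both shares lay above that of their own class.

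**Figure D3:**
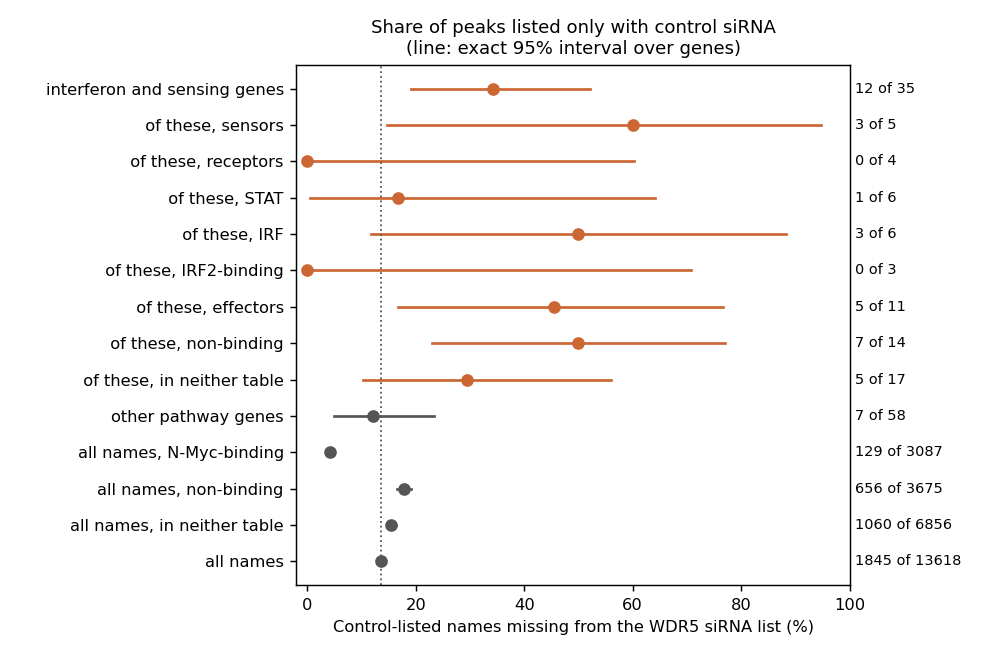
Percent of names with a control siRNA peak that were missing from the WDR5 siRNA list, for the interferon and sensing genes, their role groups and promoter classes (orange) and for other pathway genes and all names (grey); lines are exact 95% intervals over genes and the dotted line marks all names at 13.5%. The interferon and sensing genes stand at 34.3% and the other pathway genes at 12.1%.

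The rows of the non-binding table carry an order that the file does not explain, and the calls followed it in these genes as in the whole table. Genes listed in both had positions from 7.83% (STAT5B) to 44.6% (STAT4) of the table length, with a median of 23.3%. Control-only genes ran from 33.7% (IRF5) to 56.4% (IFIH1), with a median of 45.9%. Genes in neither list ran from 57.6% (TLR2) to 98.6% (IFIT2), with a median of 77.1%. The control-only genes and those in neither list did not overlap, while STAT4 lay among the control-only genes, and IRF5 and IRF7 within the range of genes listed in both.

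Medians of all promoters with these calls were 23.9%, 51.5% and 78.4%. Over the whole table the calls overlapped widely, with control-only promoters from 24.2 to 99.8% and promoters in neither list from 40.6 to 99.9%. TLR4 stood at 59.2%, whereas all 34 WDR5-siRNA-only promoters of the table had a median of 98.4%. In the N-Myc-binding table the genes ran from 18.8% (STAT3) to 69.8% (ISG20L2).

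**Figure D4:**
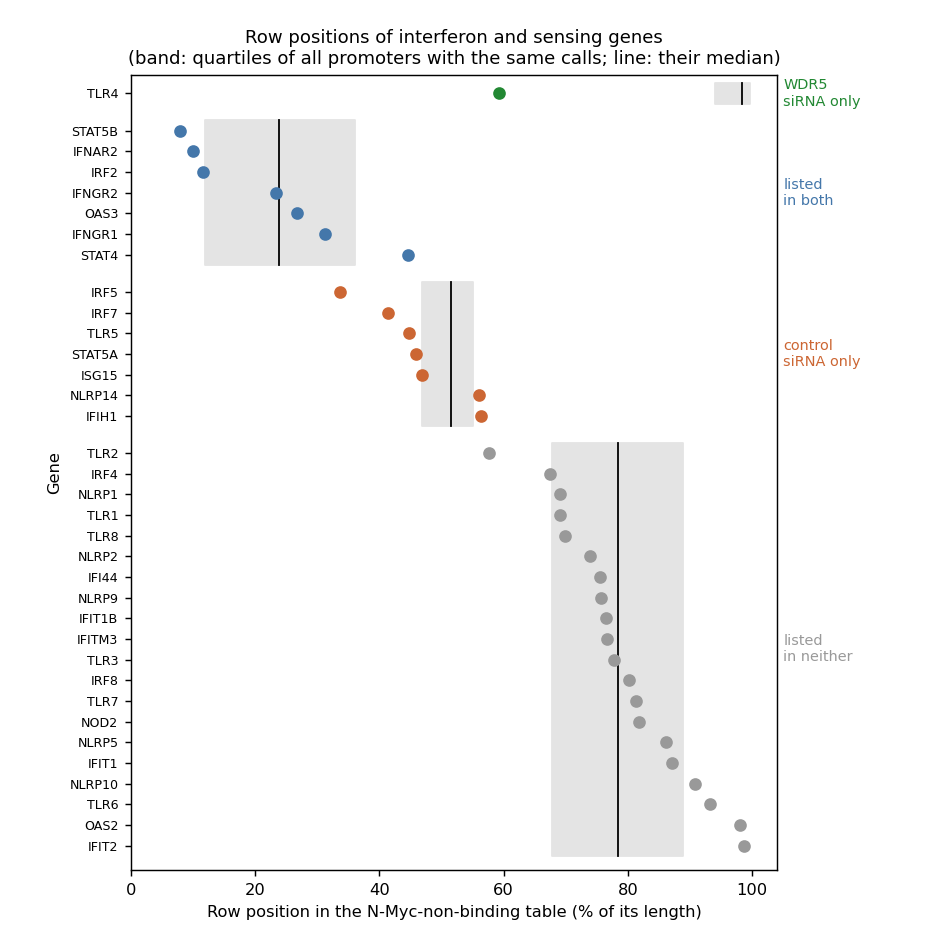
Row position of the 35 interferon and sensing genes in the N-Myc-non-binding table, as a percent of its length, 1 point per gene, sorted within calls; bands give the quartiles of all promoters with the same calls and black lines their medians. Genes listed in both end at 44.6%, control-only genes lie between 33.7% and 56.4%, and genes in neither list begin at 57.6%.

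The control-only share of all promoters differed along the non-binding table. Over the first 20% of its rows, 0 of 1266 promoters listed with control siRNA were control-only, and 0 of 3 interferon and sensing genes were. From 20 to 40% the numbers were 1 of 4 genes, against 3.16% of all promoters. From 40 to 60% they were 6 of 7 genes (85.7%, interval 42.1 to 99.6%), against 53.5% of all, which lies inside that interval. None of the genes with a control peak lay beyond 60%, where 60.3% of all promoters with one were control-only. The part of the row position in the share of these genes was not tested.

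Control-only names tended to stand beside each other. Of the 12 control-only genes, 6 had a control-only name next to them in the control list, against 37.7% of all 1845 control-only names. Of the 23 genes listed in both, 7 had one (30.4%), against 22.8% of all names listed in both. The 6 were IFIH1, IRF5, IRF7, IRF9, ISG15 and NLRP14.

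Other genes of interferon signalling and sensing, whose names the rule does not cover, had a control-only share near that of all names. Of 99 such genes 70 were found in the files, and 58 had a control peak. Of these, 51 were listed in both and 7 were control-only (12.1%, interval 4.99 to 23.3%), against 13.5% of all names. None was listed only with WDR5 siRNA.

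Among ligands and kinases, JAK1, JAK2 and TYK2, which phosphorylate the STAT factors, were listed in both, and the ligand genes IFNB1, IFNG and IFNK were promoters in neither list. Of the feedback genes, 10 of 11 that the control library listed were in both lists, such as SOCS1, USP18 and PTPN2. SOCS3, an inhibitor of cytokine receptor signalling and an N-Myc-binding promoter, was control-only. Of sensors, adaptors and kinases, 15 of 18 were listed in both, among them MAVS, MYD88, TBK1 and TRAF6. The control-only genes were IRAK2, a kinase below toll-like receptors, RNF135, a ubiquitin ligase of RIG-I, and PYCARD, the inflammasome adaptor. Control-only shares were 9.09% for feedback genes and 16.7% for sensors, adaptors and kinases. Both intervals (0.230 to 41.3% and 3.58 to 41.4%) include the 13.5% of all names.

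Of the other antiviral effectors, 13 of 15 were listed in both, including ADAR, EIF2AK2, SAMHD1 and ZC3HAV1. HERC5, the ligase that attaches ISG15, was control-only. Antigen presentation genes had 10 of 11 in both, with B2M, TAP1 and PSMB9 among them, and the immunoproteasome subunit PSMB8 control-only. Control-only shares were 13.3% for these effectors and 9.09% for antigen presentation genes. Both intervals (1.66 to 40.5% and 0.230 to 41.3%) include the 13.5% of all names.

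All 14 markers of the neuroblastoma and sympathetic lineage, the labelled cell type, were listed with control siRNA, as were 13618 of all 16500 names. Of these markers, 11 were listed in both, such as PHOX2A, HAND2 and GATA3. TH, DBH and DDC were control-only (21.4%, interval 4.66 to 50.8%). That interval includes the 13.5% of all names with a control peak. No blood or immune cell marker had a peak in either library, with 10 of 16 found as promoters, among them PTPRC, CD3E and CD2. In neither list were 16.9% of all names and 41.4% of all non-binding promoters, the class of these 10 markers. Of the 6 fibroblast and endothelial markers found, COL1A1 and PDGFRB were control-only, and COL1A2, COL3A1, CDH5 and VWF were in neither list. Of the 3 epithelial markers found, KRT18 was control-only, and CDH1 and KRT5 were in neither list. Each of these small sets thus had 66.7% in neither list, against 16.9% of all names. The lymphoid and myeloid factors IRF4 and IRF8 were likewise in neither list.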

How the data were processed

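H3K4me3 ChIP-seq was represented by 3 deposited files: a pair of gene name lists and 2 promoter tables with a start site and a gene name each. The values deposited by the authors are names and positions in no measured unit. BWA 0.7.12, bedtools and the build hg19 are named in the submitters' processing notes. The peak caller and its threshold are not stated in the sources used here. IgG and input libraries were not used here. The design written for the tests allowed for H3K4me3 values per promoter; the tables held none, so peak calls were compared.

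Names were reduced to distinct names and classed by list. The start site is the end coordinate of its interval. Promoters were joined to lists by name, so a peak at another start site of a gene can count for the listed promoter. All 58 names matched RefSeq (GRCh38.p14), DDX58 as a synonym of RIGI. Promoter windows come from RefSeq; their starts may differ from those of the authors. A gene held a motif if any of its windows did, and its CpG ratio is the median over its windows. The genes without a window were APOBEC3B, APOBEC3C, APOBEC3D, APOBEC3F, IFIT2, IFNAR2, IRF2, IRF3, IRF7, NLRP1, NLRP10, OAS2, TLR1 and TLR7, among others. Every gene was to be accounted for, and those listed in 1 library named; a few genes that enter the counts are not reported here by name. The genes and lists were chosen with earlier results of these data known. The code was tested on simulated data and ran on Python 3.11.15 with scipy 1.17.1, pandas 2.3.3, matplotlib 3.10.9 and numpy 2.4.6.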

Additional observations from a re-analysis of the deposited data

How the results depend on the processing

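No paired analysis was possible because each siRNA has 1 H3K4me3 library and no test was made, and no replicate could be left out. The control-only share of 34.3% stayed between 33.3% and 38.9% in all 7 settings listed beforehand: names with a single row, leaving out IRF2BP, STAT, or NLRP and NOD names, keeping genes with a promoter row, keeping autosomal genes with no other listed start site within 2 kb, and 1 gene per cluster within 200 kb (genes with no listed position all kept). The single-row setting left out no gene with a control peak and gave the same 12 of 35. Keeping genes with a promoter row and the autosomal setting both gave 7 of 18, so the 7 settings are not separate checks. Settings added after seeing the data gave 29.2 to 38.7% without each role group in turn, 33.3% without APOBEC3 names and 20.7% with all 58 genes as the denominator. Within row ranges of the non-binding table it was 0 of 3 genes (0%) in the first range and 85.7% from 40 to 60% of the rows, with 3 and 7 genes in these ranges; the cause was not tested. The share of other pathway genes was 12.3% for names with a single row. As a percent of promoters with a control peak only, the median row position was 79.0% for control-only genes and 40.1% for genes listed in both, because promoters without a control peak leave the scale. Joining synonyms left 35 genes with a control peak. In the 200 bases nearest the start, 9 genes held the ISRE pattern, 5 TTCNNNGAA and 5 CACGTG. Alternatives on pseudocounts and low values were not possible, since no values are in the tables. The unknown depth limits every missing call.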
